A study of Mus musculus with 15 samples.

Results

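Oxidative phosphorylation is the process by which mitochondria pass electrons from NADH and succinate along the respiratory chain to oxygen and use the resulting proton gradient to make ATP. The chain consists of complex I (NADH dehydrogenase), complex II (succinate dehydrogenase), complex III (the cytochrome bc1 complex) and complex IV (cytochrome c oxidase), and the ATP synthase is complex V. Most subunits are encoded in the nucleus and a few in mitochondrial DNA, and absorptive enterocytes of the small intestine are rich in mitochondria and use ATP for nutrient uptake. The genes described here were all those with a single-symbol probe set on the array whose symbol began with Nduf followed by a, b, s, v or c, with Uqcr, with Atp5 or with Cox and a digit from 4 to 8, or was Sdha, Sdhb, Sdhc or Sdhd. These were 88 of the 18820 genes measured.

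Of the 88 genes, 6 encode core subunits of complex I, 28 its accessory subunits, 4 complex II, 7 complex III, 10 complex IV, 5 the catalytic F1 part of complex V and 12 its membrane part and stalks. A further 8 are isoforms of complex IV subunits that are best known from other tissues, such as muscle, lung or testis. The symbol rule also took in 7 complex I assembly factors (Ndufaf1 to Ndufaf7), which are not subunits, and Cox7a2l, described as a factor for supercomplexes of complexes III and IV, a function not tested here. They are kept apart below, which left 80 subunit genes, or 72 without the 8 isoforms. Ndufa4 is counted with complex IV, where its protein is found, despite its name. Ndufa13, Ndufb1, Ndufaf8, Uqcrc2 and Cox7c, and the subunits encoded in mitochondrial DNA, were not analysed here.

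Organoids were made from duodenal crypts of C57BL/6J females, 9 weeks old, grown as confluent 2D monolayers and exposed for 6 h to the soluble, undigested part of a protein source at 4% (w/v). The sources were CAS (casein), SBM (soybean meal), SDPP (plasma protein from porcine blood, spray dried) and YMW (larvae of the yellow meal worm), and the medium control (MC) received DMEM alone. All groups shared the organoid medium with its added growth factors, a sample was 3 pooled wells of a plate, and each of the 5 groups had 3 samples with 1 array each. The methods name 3 mice as the source of the organoids, but the labels do not tie a sample to a mouse, so p-values measure the spread between these samples. Values are log2 of the deposited intensity, given in the order of replicates 1, 2 and 3, and a fold change is the difference of 2 group means on that scale. In a bulk sample of this kind, fewer cells of a type and less RNA per cell cannot be told apart.

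The MC arrays differed among themselves. Over the 16 absorptive enterocyte markers, all above background, the mean log2 intensity was 8.34, 10.20 and 10.21 in the MC arrays and 8.14 to 9.73 in the 12 arrays of exposed monolayers. The mean of 10 stem cell markers was 8.37, 7.62 and 7.10 in the MC arrays against 8.08 to 8.51, and that of 11 G2 and M phase genes was 8.91, 7.92 and 7.43 against 8.55 to 8.94. Of the MC arrays, replicates 2 and 3 thus lay outside the range of the exposed arrays on all 3 lists, and MC replicate 1 lay within it. Mesenchymal (3.92 to 4.25) and immune (4.21 to 4.53) marker lists lay close to the background level of 3.91 in every array, with 4 of 7 and 3 of 6 genes above it. Results against the MC are therefore also given without single MC arrays.

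Most oxidative phosphorylation genes were clearly expressed in the monolayers. Of the 88 genes, 85 had a mean above the background level, taken as the level that 95% of 1155 olfactory and vomeronasal receptor genes stayed under. The genes below it, Cox6b2, Cox7b2 and Cox8b, are all among the isoforms known from other tissues. Cox4i2, Cox6a2, Cox8c and Ndufa4l2 lay just above it, with values of 3.81 to 5.01 over the 15 arrays. The remaining isoform of that group, Cox7a1, reached 8.92.

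**Figure D1:**
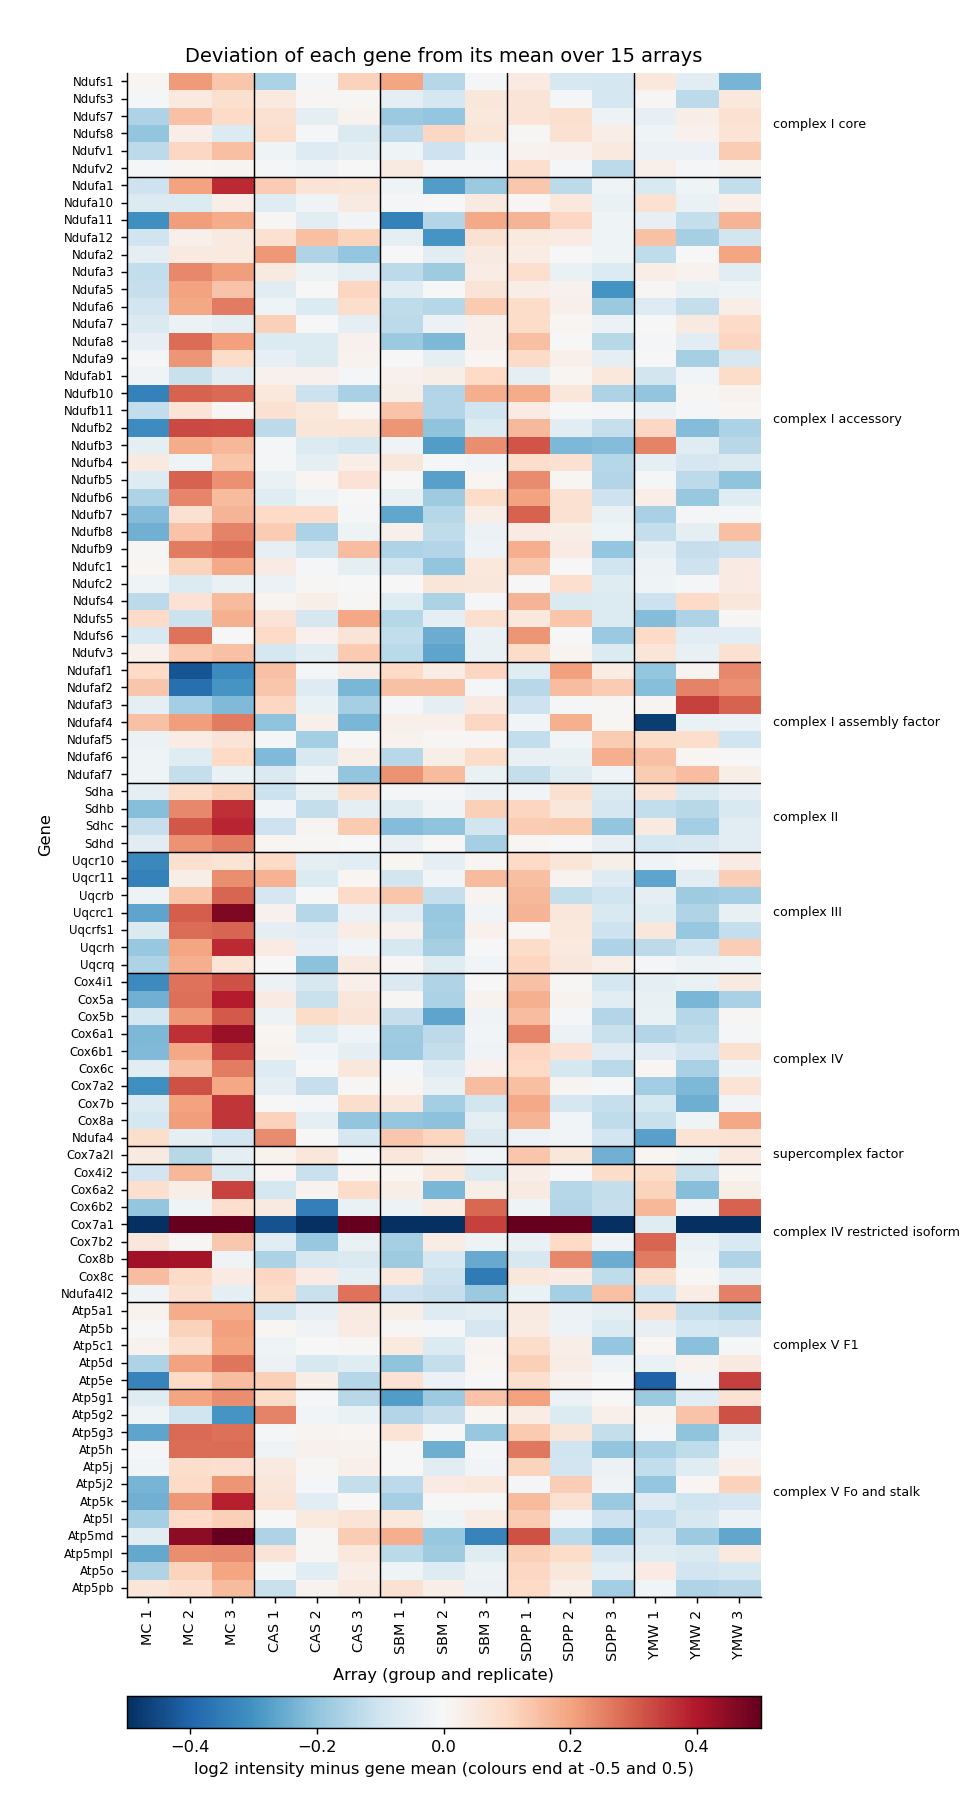
Deviation of each of the 88 genes (rows, by role) from its own mean over the 15 arrays (columns, by group and replicate), in log2 intensity; red is above and blue below the gene's mean, and colours end at -0.5 and 0.5. MC replicates 2 and 3 are red over most subunit rows, MC replicate 1 is mostly blue, and the row of Cox7a1 goes past the ends of the scale.

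In the means of all 7 groups of broadly expressed subunits, MC replicate 1 was the lowest of the MC arrays. The mean deviation of the 72 broadly expressed subunits from their own means was -0.12, 0.16 and 0.19 in the MC arrays, 0.01, -0.03 and 0.01 in CAS, -0.04, -0.11 and 0.01 in SBM, 0.11, 0.01 and -0.08 in SDPP and -0.05, -0.08 and 0.00 in YMW. The MC arrays thus lay at both ends, replicates 2 and 3 above all exposed arrays and replicate 1 just below all of them. The group means were 0.08 ± 0.17 (SD, n = 3) in MC, -0.00 ± 0.02 in CAS, -0.05 ± 0.06 in SBM, 0.01 ± 0.10 in SDPP and -0.04 ± 0.04 in YMW. The SD was largest in MC, where replicates 2 and 3 lay close together and replicate 1 lay apart from them.

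**Figure D2:**
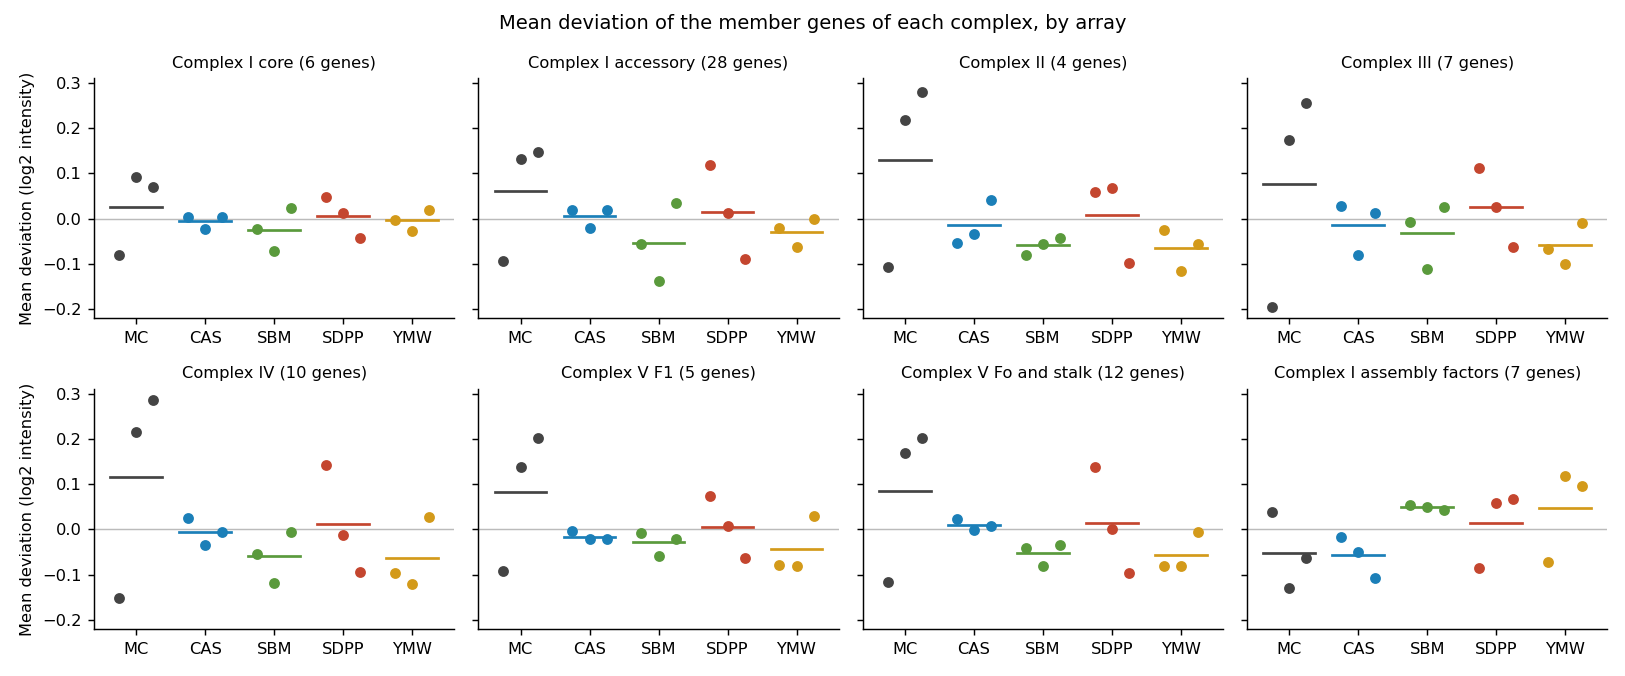
Mean deviation from the gene mean (y axis, log2 intensity) of the genes of each complex in each array (points, in replicate order) and the group mean (lines). In all 7 subunit panels MC replicate 1 is the lowest MC point; the assembly factors in the last panel have the opposite order, with MC replicate 1 highest at 0.04.

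MC replicate 3 held the highest of the 15 values for 41 of the 88 genes (16.2% of all genes had their highest value there) and MC replicate 2 for 16 (5.86%). MC replicate 1 held the lowest value for 22 of the 88 (4.86% of all genes), all of them broadly expressed subunits. It lay inside the range of the 12 exposed arrays for 64 genes, below it for 22 (5.95% of all genes) and above it for 2 (9.83%). MC replicate 2 lay above all exposed arrays for 46 genes (15.01% of all genes) and MC replicate 3 for 49 (19.2%). No gene had all 3 MC arrays above, or all 3 below, the 12 exposed arrays (1.01% and 0.739% of all genes). The median SD of the 88 genes was 0.162 in MC, and 0.0625, 0.0907, 0.109 and 0.0903 in CAS, SBM, SDPP and YMW. Over all genes above background it was 0.161 in MC, and 0.105, 0.113, 0.113 and 0.113 in the sources in the same order. The fit uses 1 shared spread for the 5 groups, so its standard errors for comparisons with the MC are too small where the MC spread is the largest, as it was for 49 of the 88 genes (36.4% of all genes).

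None of the 88 genes passed the threshold used in the study, an unadjusted p under 0.05 in limma with a change of at least 1.5-fold, in any single source against the MC. Over all genes, 3.85%, 3.50%, 1.63% and 3.87% passed it with CAS, SBM, SDPP and YMW. At a Benjamini-Hochberg adjusted p under 0.05 in limma the count was also 0 for each (in the same order, 0.654%, 0.00531%, 0% and 0.00531% of all genes). At an unadjusted p under 0.05 alone, 0 genes were higher and 3 lower with CAS (7.59% and 8.91% of all genes), and 1 was higher and 17 lower with SBM (7.43% and 10.8%). With SDPP 0 were higher and 1 lower (6.37% and 5.63%), and with YMW 2 were higher and 14 lower (9.93% and 9.11%). As shares of 88 these lie near or below the background except for the genes lower with SBM and YMW, and all 4 comparisons share the same 3 MC arrays.

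The counts turned on the MC arrays. Without MC replicate 1, the genes at an unadjusted p under 0.05 were 41, 48, 35 and 46 (CAS, SBM, SDPP and YMW in this order), and 19, 29, 14 and 33 had an adjusted p under 0.05, while over all genes 29.4%, 31.2%, 27.7% and 31.0% had an unadjusted p under 0.05 and 19.6%, 21.3%, 16.4% and 21.3% an adjusted one. The unadjusted counts were 1, 5, 1 and 8 when MC replicate 2 was left out (10.1%, 10.05%, 6.51% and 11.1% of all genes) and 2, 5, 1 and 6 when MC replicate 3 was (8.502%, 7.67%, 5.09% and 9.51%), with no adjusted call among the 88 in either case. Of the exposed arrays, SBM replicate 2 (5 with SBM when left out, 11.6% of all genes), YMW replicate 2 (7 with YMW, 14.4%), YMW replicate 3 (9 with YMW, 13.6%), SDPP replicate 1 (9 with SDPP, 14.3%), SDPP replicate 3 (0 with SDPP, 6.53%), CAS replicate 1 (1 with CAS, 11.2%) and CAS replicate 3 (5 with CAS, 16.9%) also moved the count of their own comparison by more than 1.5 times. A left-out array of another source moved only the single SDPP call, to between 0 and 3.

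For CAS, SBM, SDPP and YMW in turn, the median log2 fold change of the 80 subunits was -0.10, -0.13, -0.06 and -0.12, against medians over all genes of -0.00, -0.01, 0.00 and 0.02. Below 0 were 64, 67, 63 and 67 of the 80. Leaving out MC replicate 1 made the medians -0.18, -0.22, -0.16 and -0.21, and leaving out MC replicate 3 made them -0.04, -0.06, -0.01 and -0.06. A second quantile normalization over the genes gave -0.02, -0.05, -0.00 and -0.05.

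**Figure D3:**
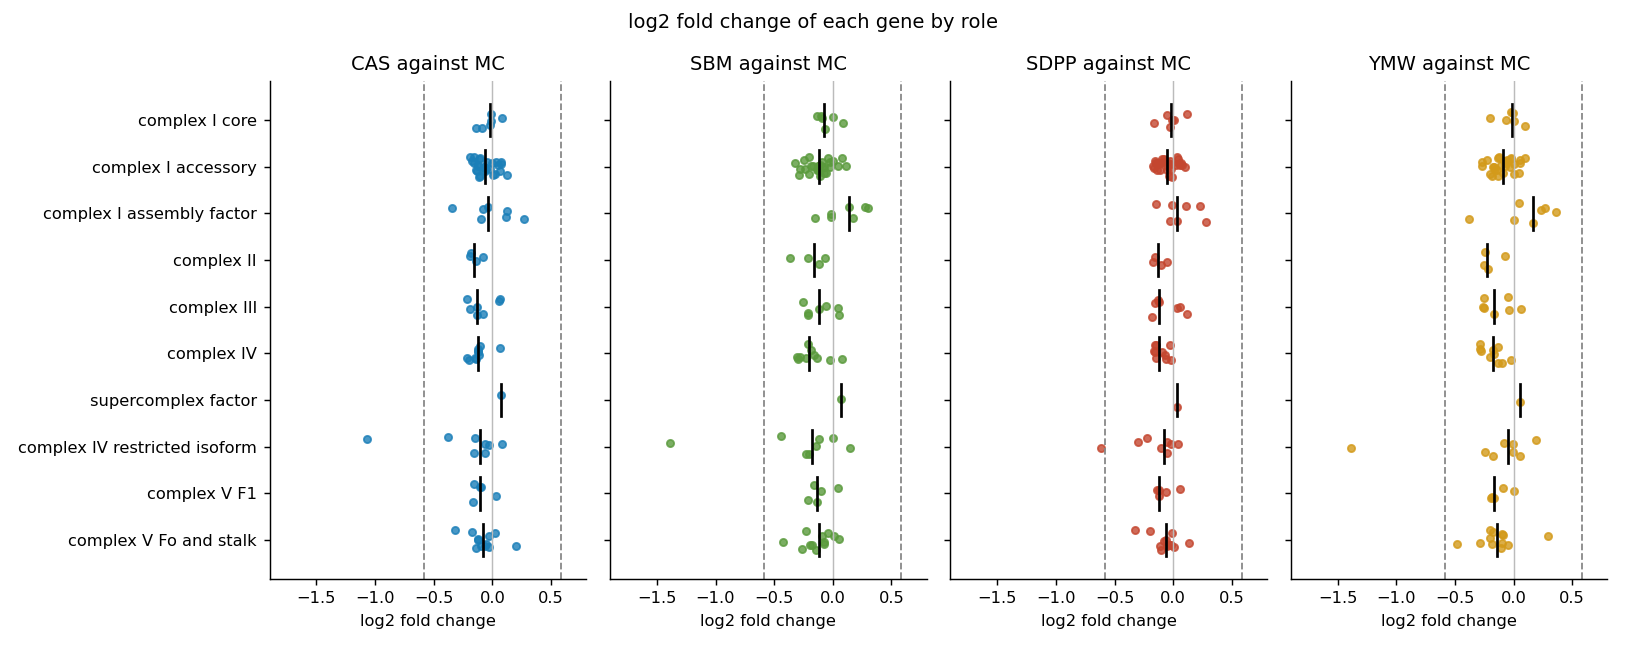
log2 fold change of each gene (points; x axis) against the MC with each protein source (panels), by role (rows), with the median of each row (black line); dashed lines mark a 1.5-fold change in either direction. Only Cox7a1, among the isoforms of complex IV, lies past the lines.

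With the shared spread of the fit, the intervals of most single genes stayed within 1.5-fold. The 95% interval of the fold change lay wholly within 1.5-fold in either direction for 84, 81, 85 and 84 of the 88 genes with CAS, SBM, SDPP and YMW (95.5%, 92.0%, 96.6% and 95.5%, against 83.0%, 81.8%, 84.3% and 81.7% of all genes). These intervals carry the same limit on the MC spread. Among the 72 broadly expressed subunits the interval went past 1.5-fold for 1, 3, 1 and 1.

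When the 4 sources were averaged and set against the MC, 1 of the 88 genes passed the threshold of the study (3.35% of all genes), Cox7a1, and none had an adjusted p under 0.05 (1.52% of all genes). At an unadjusted p under 0.05, 3 were higher and 19 lower (11.0% and 12.0% of all genes). A second quantile normalization turned that split to 7 higher and 4 lower (12.2% and 11.0% of all genes), and centring each array on its median turned it to 1 higher and 28 lower (8.23% and 16.5%). With MC replicate 1 left out the split was 4 and 47 (18.3% and 15.2% of all genes), and 37 genes had an adjusted p under 0.05 (25.0% of all genes). It was 0 and 3 when MC replicate 2 was left out (5.17% and 7.06%), and 0 and 1 when MC replicate 3 was (3.86% and 5.19%). Leaving out 1 exposed array gave 12 to 26 genes in all (20.8% to 23.8% of all genes), and fewer than 15 without CAS replicate 1, SBM replicate 2, SDPP replicate 2, SDPP replicate 3 or YMW replicate 2.

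**Figure D4:**
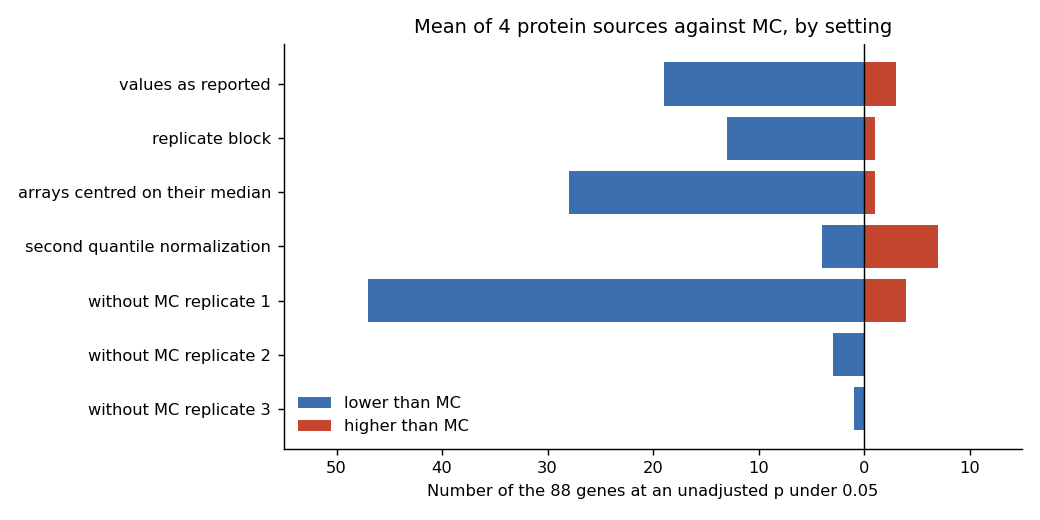
Number of the 88 genes (x axis) that were higher (red, to the right) or lower (blue, to the left) in the mean of the 4 sources than in the MC at an unadjusted p under 0.05 in limma, for the values as reported and for 6 other settings (rows). The lower genes go from 1 without MC replicate 3 to 47 without MC replicate 1.

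Cox7a1, the isoform of cytochrome c oxidase subunit VIIa best known from heart and skeletal muscle, had by far the widest range. Its log2 intensity was 5.96, 8.41 and 8.92 in MC, 6.44, 6.27 and 7.39 in CAS, 5.91, 6.01 and 7.21 in SBM, 7.79, 7.67 and 5.99 in SDPP and 6.82, 6.19 and 6.13 in YMW. High values (6.82 to 8.92) occurred in 7 arrays of all 5 groups and low values (5.91 to 6.44) in the other 8, so the groups overlapped. The 7 arrays were also the 7 with the highest enterocyte marker means, 9.06 to 10.21, against 8.14 to 8.47 in the other 8, and the part of that list in the result was not tested. The log2 fold change was -1.07 ± 0.65 (SE, adjusted p = 0.45) in CAS and -1.39 ± 0.65 (SE, adjusted p = 0.278) in SBM. It was -0.62 ± 0.65 (SE, adjusted p = 0.726) in SDPP and -1.39 ± 0.65 (SE, adjusted p = 0.266) in YMW. In the mean of the 4 sources it was -1.12 ± 0.52 (SE, adjusted p = 0.214), with an unadjusted p of 0.0485. Leaving out MC replicate 1, 2 or 3 made it -2.02, -0.79 or -0.54, with unadjusted p of 0.000216, 0.218 and 0.349, and the call was also lost without any one of CAS replicate 1 or 2, SBM replicate 1 or 2, SDPP replicate 3 and YMW replicate 2 or 3.

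Cox7a2, the isoform of the same subunit found in most tissues, varied far less and was added after its values were seen. Its values were 8.71, 9.33 and 9.21 in MC, 8.97, 8.90 and 9.02 in CAS, 9.02, 8.98 and 9.17 in SBM, 9.16, 9.03 and 9.00 in SDPP and 8.84, 8.79 and 9.08 in YMW. Only MC replicate 1 lay below, and MC replicates 2 and 3 above, all exposed arrays, and the log2 fold change in the mean of the 4 sources was -0.08 ± 0.10 (SE, adjusted p = 0.693).

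The promoters of this pair of isoforms are shown because one was the single gene past the threshold and the other was not, together with that of Cox6a1, the complex IV gene with the lowest fold change outside the isoforms. RefSeq promoters of 300 bases (250 before and 50 after a start listed for the gene, GRCm38.p6) were matched for 73 of the 88 genes. Capitals mark GCATGCGC or its reverse complement GCGCATGC, which overlap here and are the core of the motif of NRF1, a factor known to bind many nuclear genes of the respiratory chain. The stretches lie at chr7:30183921-30184220 on the plus strand for Cox7a1, chr9:79759804-79760103 on the minus strand for Cox7a2 and chr5:115348909-115349208 on the minus strand for Cox6a1. Those of Cox7a1 and Cox6a1 are at the start of the annotated gene. That of Cox7a2 lies inside the annotated gene, which spans 79755241 to 79771422.
Cox7a1: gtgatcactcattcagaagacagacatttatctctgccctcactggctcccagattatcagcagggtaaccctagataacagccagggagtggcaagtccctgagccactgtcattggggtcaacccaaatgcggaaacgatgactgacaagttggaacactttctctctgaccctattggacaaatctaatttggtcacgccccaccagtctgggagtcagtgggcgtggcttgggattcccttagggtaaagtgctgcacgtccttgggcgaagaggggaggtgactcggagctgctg
Cox7a2: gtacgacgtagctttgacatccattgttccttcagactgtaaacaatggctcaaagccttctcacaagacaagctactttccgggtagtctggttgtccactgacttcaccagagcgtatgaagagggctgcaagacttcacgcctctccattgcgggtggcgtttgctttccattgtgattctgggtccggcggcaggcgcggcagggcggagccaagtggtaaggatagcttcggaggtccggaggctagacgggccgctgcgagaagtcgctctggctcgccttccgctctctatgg
Cox6a1: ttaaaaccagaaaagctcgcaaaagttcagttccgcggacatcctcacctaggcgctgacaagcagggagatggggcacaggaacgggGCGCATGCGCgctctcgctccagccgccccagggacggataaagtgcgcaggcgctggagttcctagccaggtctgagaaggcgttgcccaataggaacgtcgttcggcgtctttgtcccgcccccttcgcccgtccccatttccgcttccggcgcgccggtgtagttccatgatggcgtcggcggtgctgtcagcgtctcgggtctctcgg

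Searched on both strands, the NRF1 letters were in the promoters of 12 of the 73 genes (16.4%, against 4.33% of the 14749 measured genes with a promoter). The letters CCGGAAGT, bound by ETS factors, were in 5 (6.85% against 6.07%), and AAGATGGC, bound by YY1, in 10 (13.7% against 3.82%). At least 1 of the 3 was in 26 (35.6% against 13.2%), and by role this ranged from 0 of 4 matched genes of F1 and 0 of 4 matched isoforms of complex IV to 7 of 11 matched genes of the membrane part and stalks of complex V. A match describes these letters only. In the mean of the 4 sources, most genes with the NRF1 letters had log2 fold changes below 0, as most subunits did. Those above 0 were Atp5g2 (0.17) and Uqcr11 (0.03), and a link to the letters was not tested.

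Complex IV accepts electrons from cytochrome c and reduces oxygen. The median log2 fold change of its 10 broadly expressed genes was -0.12, -0.20, -0.12 and -0.18 with CAS, SBM, SDPP and YMW. Cox6a1, the subunit VIa isoform of most tissues, had values of 10.51, 11.10 and 11.17 in MC, 10.74, 10.67 and 10.71 in CAS, 10.55, 10.60 and 10.72 in SBM, 10.98, 10.70 and 10.62 in SDPP and 10.59, 10.61 and 10.73 in YMW. MC replicates 2 and 3 were above every exposed array and MC replicate 1 was below every one. The mean of the 4 sources differed from the MC by -0.24 ± 0.11 (SE, adjusted p = 0.205). Ndufa4 had the highest fold change of the complex, 0.02 ± 0.08 (SE, adjusted p = 0.907), with values of 10.57, 10.44 and 10.39 in MC, 10.72, 10.48 and 10.40 in CAS, 10.62, 10.59 and 10.41 in SBM, 10.46, 10.47 and 10.39 in SDPP and 10.21, 10.55 and 10.56 in YMW. All of its groups overlapped. At an unadjusted p under 0.05, Cox5b, Cox8a and Cox6a1 were lower with SBM and Cox5a and Cox7b were lower with YMW.

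**Figure D5:**
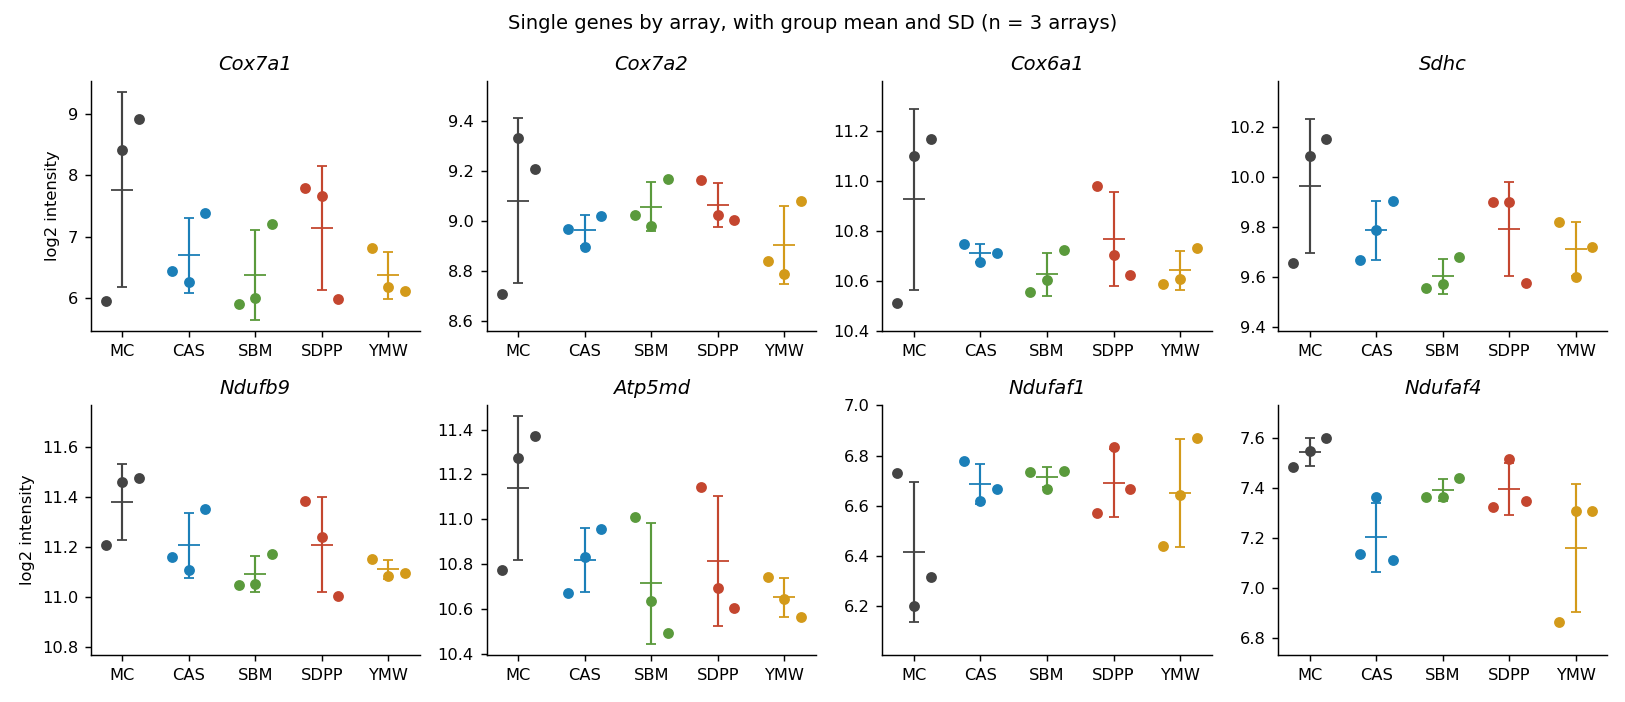
log2 intensity (y axis; scales differ between panels) of 8 genes in each array (points, in replicate order), with the group mean and SD (n = 3). In the panels of Cox7a1, Cox7a2, Cox6a1, Sdhc, Ndufb9 and Atp5md the first MC point is the lowest of its group and the other MC points are high, Ndufaf1 shows the opposite order, and Ndufaf4 has MC points that lie close together.

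Of the 8 tissue-restricted isoforms of complex IV, Cox6b2, a testis isoform, had the highest fold change after averaging the sources, 0.05 ± 0.10 (SE, adjusted p = 0.797). It was not above background, with values of 3.64, 3.81 and 3.91 in MC, 3.88, 3.49 and 3.798 in CAS, 3.81, 3.87 and 4.12 in SBM, 3.81, 3.68 and 3.72 in SDPP and 4.00, 3.82 and 4.13 in YMW. Cox8b, known from heart and skeletal muscle, was also below background on average, and its values ran from 3.44 to 3.95 in the exposed arrays against 4.11, 4.10 and 3.67 in the MC. Its unadjusted p was 0.0198 with CAS and 0.00768 with SBM, with no change of 1.5-fold.

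Complex I takes electrons from NADH and passes them to ubiquinone. The median log2 fold change of its 34 subunit genes was -0.06, -0.11, -0.04 and -0.07 with CAS, SBM, SDPP and YMW. The 6 core genes stayed closest to the MC, with fold changes between -0.20 and 0.12 over the 4 sources, and none of them reached an unadjusted p under 0.05. Ndufs8, an iron-sulfur subunit near the ubiquinone site, had values of 9.87, 10.10 and 10.001 in MC, 10.15, 10.06 and 9.997 in CAS, 9.94, 10.17 and 10.13 in SBM, 10.07, 10.14 and 10.10 in SDPP and 10.04, 10.09 and 10.14 in YMW. Ndufs1, the largest iron-sulfur subunit, had values of 8.76, 8.97 and 8.89 in MC, 8.60, 8.75 and 8.87 in CAS, 8.95, 8.61 and 8.75 in SBM, 8.80, 8.68 and 8.67 in SDPP and 8.81, 8.70 and 8.52 in YMW. Both had overlapping groups, and in the mean of the 4 sources they gave 0.10 ± 0.06 (SE, adjusted p = 0.38) and -0.15 ± 0.08 (SE, adjusted p = 0.313).

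Among the 28 accessory subunits, Ndufab1, the mitochondrial acyl carrier protein, had the highest and Ndufb9, a subunit of the membrane arm, the lowest fold change in the mean of the 4 sources. Ndufab1 read 9.03, 8.94 and 8.99 in MC, 9.08, 9.07 and 9.05 in CAS, 9.07, 9.08 and 9.15 in SBM, 9.01, 9.06 and 9.10 in SDPP and 8.96, 9.04 and 9.14 in YMW, a difference of 0.08 ± 0.05 (SE, adjusted p = 0.412). MC replicate 2 was below all exposed arrays, and the other MC arrays were within their range. For Ndufb9 the values were 11.21, 11.46 and 11.48 in MC, 11.16, 11.11 and 11.35 in CAS, 11.05, 11.05 and 11.17 in SBM, 11.38, 11.24 and 11.01 in SDPP and 11.15, 11.08 and 11.10 in YMW, a difference of -0.23 ± 0.08 (SE, adjusted p = 0.102). Above all exposed arrays were MC replicates 2 and 3, while MC replicate 1 was within their range. With SBM the lower accessory genes at an unadjusted p under 0.05 were Ndufa1, Ndufa8, Ndufb9, Ndufc1 and Ndufv3, and with YMW they were Ndufa9, Ndufb5 and Ndufb9.

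The 7 complex I assembly factors, which help build the complex and are not part of it, went in both directions. Their median log2 fold change was -0.04, 0.14, 0.03 and 0.16 with CAS, SBM, SDPP and YMW. Ndufaf1, which acts in assembly of the membrane arm, read 6.73, 6.20 and 6.31 in MC, 6.78, 6.62 and 6.67 in CAS, 6.73, 6.67 and 6.74 in SBM, 6.57, 6.83 and 6.67 in SDPP and 6.44, 6.64 and 6.87 in YMW. Here MC replicates 2 and 3 were below all exposed arrays, MC replicate 1 was within their range, and the mean of the 4 sources differed from the MC by 0.27 ± 0.11 (SE, adjusted p = 0.147). Ndufaf2, which joins late assembly, had the same order in MC, 6.33, 5.82 and 5.90, against 5.97 to 6.44.

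Ndufaf4, a factor for the arm that binds ubiquinone, had MC values that lay close together. Its values were 7.49, 7.55 and 7.60 in MC, 7.14, 7.36 and 7.11 in CAS, 7.37, 7.37 and 7.44 in SBM, 7.33, 7.52 and 7.35 in SDPP and 6.87, 7.31 and 7.31 in YMW. All MC arrays lay above all CAS, all SBM and all YMW arrays, and SDPP replicate 2 reached into the MC range. The log2 fold change was -0.34 ± 0.12 (SE, adjusted p = 0.163) in CAS, -0.15 ± 0.12 (SE, adjusted p = 0.51) in SBM, -0.15 ± 0.12 (SE, adjusted p = 0.614) in SDPP and -0.38 ± 0.12 (SE, adjusted p = 0.129) in YMW. Non-overlap of this kind, in the lower direction, was seen for 5 of the 88 genes with CAS (7.59% of all genes), 5 with SBM (8.96%), 0 with SDPP (5.89%) and 9 with YMW (7.12%). In the higher direction it was 2 (5.65%), 2 (4.97%), 1 (4.87%) and 5 (7.42%).

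Ndufaf3, the partner of Ndufaf4, had the smallest p of the 88 genes in any single source against the MC. It read 7.25, 7.12 and 7.07 in MC, 7.40, 7.26 and 7.13 in CAS, 7.28, 7.24 and 7.34 in SBM, 7.19, 7.28 and 7.30 in SDPP and 7.30, 7.63 and 7.59 in YMW. With YMW the log2 fold change was 0.36 ± 0.10 (SE, adjusted p = 0.113), with an unadjusted p of 0.00273, and 2 of the 3 YMW arrays were above all other arrays.

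Complex II oxidises succinate and feeds ubiquinone, and all 4 of its genes had fold changes below 0 with every source, with medians of -0.16, -0.16, -0.13 and -0.23. Sdha, the flavoprotein, read 10.75, 10.90 and 10.92 in MC, 10.70, 10.77 and 10.88 in CAS, 10.80, 10.80 and 10.77 in SBM, 10.79, 10.88 and 10.73 in SDPP and 10.87, 10.73 and 10.76 in YMW, a difference of -0.07 ± 0.05 (SE, adjusted p = 0.508) in the mean of the 4 sources. Sdhc, a membrane anchor, read 9.66, 10.08 and 10.15 in MC, 9.67, 9.79 and 9.90 in CAS, 9.56, 9.57 and 9.68 in SBM, 9.90, 9.90 and 9.57 in SDPP and 9.82, 9.60 and 9.72 in YMW, a difference of -0.24 ± 0.10 (SE, adjusted p = 0.157). For Sdhc, MC replicates 2 and 3 were above all exposed arrays, and MC replicate 1 was within their range. Sdhc and Sdhd with SBM, and Sdhd with YMW, had an unadjusted p under 0.05.

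Complex III passes electrons from ubiquinol to cytochrome c, and its 7 genes had medians of -0.13, -0.12, -0.12 and -0.16. Uqcr10, a small subunit, had values of 8.81, 9.21 and 9.20 in MC, 9.23, 9.08 and 9.07 in CAS, 9.14, 9.09 and 9.14 in SBM, 9.23, 9.19 and 9.16 in SDPP and 9.11, 9.13 and 9.17 in YMW. Uqcrc1, a core protein of the complex, had values of 10.10, 10.67 and 10.83 in MC, 10.38, 10.22 and 10.33 in CAS, 10.31, 10.17 and 10.35 in SBM, 10.53, 10.42 and 10.28 in SDPP and 10.30, 10.21 and 10.32 in YMW. MC replicate 1 was below every exposed array for both genes. For Uqcrc1 alone, MC replicates 2 and 3 were above every one, and the mean of the 4 sources gave 0.07 ± 0.07 (SE, adjusted p = 0.624) for Uqcr10 and -0.21 ± 0.11 (SE, adjusted p = 0.274) for Uqcrc1. Uqcrb and the Rieske protein gene Uqcrfs1 were lower with YMW at an unadjusted p under 0.05.

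Complex V makes ATP in its F1 part, driven by the proton flow through its membrane part. Its 17 genes had a median log2 fold change of -0.10, -0.14, -0.07 and -0.17 with CAS, SBM, SDPP and YMW. Atp5a1, the alpha subunit, had the lowest difference in F1 and values of 11.64, 11.81 and 11.81 in MC, 11.52, 11.58 and 11.67 in CAS, 11.65, 11.56 and 11.57 in SBM, 11.66, 11.59 and 11.58 in SDPP and 11.70, 11.51 and 11.48 in YMW. The MC replicates 2 and 3 were above all exposed arrays, and MC replicate 1 lay within their range. The mean of the 4 sources differed by -0.16 ± 0.06 (SE, adjusted p = 0.102). Atp5b, the catalytic beta subunit, was the single gene with an unadjusted p under 0.05 with SDPP, where its log2 fold change was -0.13 ± 0.06 (SE, adjusted p = 0.398). Atp5e, the epsilon subunit, read 7.28, 7.72 and 7.78 in MC, 7.74, 7.65 and 7.48 in CAS, 7.69, 7.59 and 7.62 in SBM, 7.70, 7.64 and 7.62 in SDPP and 7.21, 7.61 and 7.96 in YMW and gave 0.03 ± 0.13 (SE, adjusted p = 0.916).

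In the membrane part and stalks the extremes were Atp5g2, one of the genes for the c subunit of the proton-conducting ring, and Atp5md, a small subunit of the membrane part. Atp5g2 read 10.66, 10.58 and 10.39 in MC, 10.93, 10.67 and 10.65 in CAS, 10.54, 10.57 and 10.69 in SBM, 10.72, 10.61 and 10.71 in SDPP and 10.69, 10.83 and 11.000 in YMW. MC replicate 3 was the lowest and YMW replicate 3 the highest of the 15 arrays, all YMW arrays were above all MC arrays, and the log2 fold change was 0.30 ± 0.10 (SE, adjusted p = 0.144) with YMW. Atp5md read 10.78, 11.27 and 11.37 in MC, 10.67, 10.83 and 10.96 in CAS, 11.01, 10.64 and 10.50 in SBM, 11.15, 10.70 and 10.61 in SDPP and 10.74, 10.65 and 10.57 in YMW. MC replicates 2 and 3 were above all exposed arrays, and the log2 fold change was -0.42 ± 0.17 (SE, adjusted p = 0.218) with SBM and -0.49 ± 0.17 (SE, adjusted p = 0.157) with YMW, the lowest of the 72 broadly expressed subunits. Without MC replicate 1 it passed the threshold of the study with both, in fits where more of all genes also had an unadjusted p under 0.05. The sister genes of Atp5g2 for the c subunit, Atp5g1 and Atp5g3, had fold changes below 0 in the mean of the 4 sources (-0.15 and -0.12), and cross-hybridization between the c subunit genes was not tested.

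The kept probe set of 10 genes (Atp5g2, Atp5l, Atp5md, Atp5pb, Cox6c, Cox7a2l, Cox7b, Ndufa11, Ndufb11 and Ndufb4) was numbered among probe sets of another chromosome than the gene, and each of the 10 had a further probe set on its own. With those probe sets the log2 fold change in the mean of the 4 sources was -0.30 in place of -0.39 for Atp5md and 0.12 in place of 0.17 for Atp5g2, and the genes at an unadjusted p under 0.05 were 3 higher and 17 lower (11.0% and 12.0% of all genes).

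Between the sources few of the genes passed any of these thresholds. Against the mean of the other 3 sources, none of the 88 passed the threshold of the study with CAS, SBM, SDPP or YMW (0.159%, 0.0266%, 0.0159% and 0.0691% of all genes), and none had an adjusted p under 0.05 in limma (0.106%, 0.00531%, 0% and 0%). At an unadjusted p under 0.05, 1 gene was lower with SBM (3.35% of all genes) and none higher (1.48%), and 1 was higher with YMW (3.90%) and none lower (1.60%). With CAS and SDPP the counts were 0 in each direction (2.62% higher and 2.74% lower with CAS, 1.33% and 1.09% with SDPP). The means compared here leave out the MC arrays, but the shared spread of the fit includes them, and the median SE of the 88 genes was 0.0846 with and 0.0702 without the MC arrays. In a fit to the 12 exposed arrays alone, SBM had 5 lower genes (4.11% of all genes), YMW 2 higher (4.74%), CAS 1 higher (3.39%) and SDPP none at an unadjusted p under 0.05, and none passed the threshold of the study or had an adjusted p under 0.05. The 95% interval of all 72 broadly expressed subunits lay within 1.5-fold in each of these comparisons, in both fits.

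The gene with SBM was Ndufv3, a small accessory subunit of complex I, with a log2 difference of -0.16 ± 0.07 (SE, adjusted p = 0.999) and values of 8.10, 8.21 and 8.22 in MC, 7.99, 8.02 and 8.20 in CAS, 7.94, 7.81 and 8.04 in SBM, 8.17, 8.09 and 8.01 in SDPP and 8.14, 8.04 and 8.15 in YMW. SBM replicates 1 and 2 were the lowest of the exposed arrays. The gene with YMW was Ndufaf3, with a difference of 0.24 ± 0.08 (SE, adjusted p = 0.764). The other genes among the 2 with the smallest p of each source were Ndufaf7, a methyltransferase that acts on complex I, with CAS (-0.15 ± 0.07 (SE, adjusted p = 0.95)), Ndufa12 with CAS (0.15 ± 0.08 (SE, adjusted p = 0.978)), Atp5g2 with SBM (-0.16 ± 0.08 (SE, adjusted p = 0.999)) and YMW (0.16 ± 0.08 (SE, adjusted p = 0.927)), and Ndufb7 and Ndufaf4 with SDPP (0.15 ± 0.09 (SE, adjusted p = 1) and 0.15 ± 0.09 (SE, adjusted p = 1)).

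Ndufaf7 read 6.83, 6.73 and 6.82 in MC, 6.78, 6.84 and 6.66 in CAS, 7.08, 7.01 and 6.82 in SBM, 6.73, 6.79 and 6.83 in SDPP and 6.98, 7.01 and 6.88 in YMW. Ndufa12, an accessory subunit near the ubiquinone end, read 8.43, 8.56 and 8.58 in MC, 8.61, 8.68 and 8.65 in CAS, 8.49, 8.24 and 8.61 in SBM, 8.58, 8.58 and 8.51 in SDPP and 8.68, 8.37 and 8.44 in YMW, with SBM replicate 2 the lowest. Ndufb7, an accessory subunit of the membrane arm, read 7.29, 7.58 and 7.67 in MC, 7.60, 7.60 and 7.49 in CAS, 7.24, 7.36 and 7.54 in SBM, 7.80, 7.58 and 7.47 in SDPP and 7.34, 7.49 and 7.49 in YMW, with SDPP replicate 1 the highest. For each of these genes the source named overlapped with at least 1 of the other sources. Cox7a1 passed the threshold of the study with SDPP against the other sources once SDPP replicate 3 was left out.

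Genes that work with the chain were counted from lists. Of 14 measured genes of the citric acid cycle, which supplies NADH and succinate, 0 were higher and 7 lower in the mean of the 4 sources at an unadjusted p under 0.05, with a median log2 fold change of -0.11. For these and the lists that follow, the same comparison had 11.0% of all genes higher and 12.0% lower. Ogdh, a subunit of 2-oxoglutarate dehydrogenase, passed the threshold of the study with CAS (-0.68) and SBM (-0.60). Of 9 adenine nucleotide and phosphate carriers 0 were higher and 5 lower, with a median of -0.12, and none passed that threshold.

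Of 40 measured assembly factors outside the symbol rule, 4 were higher and 11 lower with a median of -0.03, and Cox16, a complex IV factor, passed the threshold of the study with YMW (-0.64, with 0.108 the smallest adjusted p of that list in limma). Of 12 genes of ubiquinone synthesis 3 were higher and 2 lower with a median of -0.03, and Coq10b, a ubiquinone-binding protein, passed it with SBM (-0.62) and YMW (-0.65). The genes of these lists with an adjusted p under 0.05 in the mean of the 4 sources were Cox15, a heme A synthase (-0.38 ± 0.08, adjusted p = 0.0389), and Coq2, an enzyme of ubiquinone synthesis (0.32 ± 0.07, adjusted p = 0.0474), both named after their values were seen. Over all genes the count of adjusted p under 0.05 was 0 without MC replicate 2 and 0 without MC replicate 3, so neither call held there.

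Of 15 glycolysis genes 4 were higher and 0 lower with a median of 0.02, and Hk2, a hexokinase, passed the threshold of the study with YMW (0.60). Of 17 regulators of mitochondrial biogenesis 1 was higher and 1 lower with a median of 0.02, and none passed it. The electron carrier gene Cycs and the complex III gene Cyc1, which the symbol rule leaves out, gave -0.27 and -0.01 in the mean of the 4 sources. All of these comparisons use the MC arrays described above, and the calls of list genes with single sources were not checked without single MC arrays.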

How the data were processed

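Each of 15 RNA samples (5 groups of 3) was measured on 1 Affymetrix array (mouse gene 1.1 ST). The deposited intensity values had been computed by the authors with RMA (background correction, quantile normalization and summary of the probes of a set; version not given in the sources used here) and were on a linear scale, from 3.02 to 10739. Array medians lay between 21.7 and 24.1. Because the planned tests required a log scale, the deposited values were converted to log2. Arrays give no counts, and their number limits the precision.

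Of 35556 probe sets, 21218 had 1 gene symbol in the platform annotation, 1881 had several and 12457 had no name here. Each of 18820 genes was represented by its probe set of highest mean, which left 88 of 120 probe sets of the genes described. Genes and gene lists were chosen with earlier results of these data known. Groups were taken from the labels. For differences, limma (version 3.58.1, R 4.3.3) was fitted once to the 5 groups over all genes, with the prior variance following a trend on mean level, and p-values were adjusted by Benjamini-Hochberg over all of them. The script was tested on simulated data. Values in every array are given for genes past the threshold of the study, for the highest and lowest fold change of each role and for the smallest p of each source against the others. Promoters came from RefSeq (GRCm38.p6). Alternatives covered the prior variance, the replicate number as a block, the background filter, scaling, array weights, probe sets, thresholds and leaving out each array.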

Additional observations from a re-analysis of the deposited data

How the results depend on the processing

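The counts of genes past the threshold of the study (0 with each source, 1 in the mean of the 4 sources, 0 against the other sources) moved in 15 settings for the mean of the 4 sources, and in 10 it did not. With a single source against the MC, SBM and YMW moved in 6 settings each and CAS and SDPP in 3 each. Against the other sources SDPP moved in 2, SBM and YMW in 1 each, and CAS in 0. The 1 gene of the mean, Cox7a1, was lost with 1 prior variance for all genes, with a filter on background, with a second quantile normalization, at an adjusted p under 0.05 and with the replicate block (0 in each). Same-number arrays did not deviate together over all genes: of 30 same-number pairs 9 had a correlation of deviations over 0.1 (median -0.08), and 2 of 15 arrays correlated best with their own number. Taken over all genes at once, such a correlation cannot show a small shared effect of a replicate number. The replicate block gave 1 higher and 13 lower genes at an unadjusted p under 0.05 in the mean of the 4 sources (10.4% and 11.4% of all genes), against 3 and 19. Centring each array on its median gave 1 gene with YMW (Cox7a1). Array weights gave 1 with CAS, 2 with SBM, 1 with SDPP, 2 with YMW and 1 with SDPP against the other sources (Cox7a1, and Atp5md with SBM and YMW), and 68 of the 88 genes at an adjusted p under 0.05 in the mean of the 4 sources, where 10673 of all genes had one (286 as reported, 6 with the replicate block), and the weights stopped short of convergence. With no threshold on the fold change the counts were 3, 18, 1 and 16 with CAS, SBM, SDPP and YMW, 22 in the mean (16.5%, 18.2%, 12.0%, 19.0% and 23.002% of all genes), and 1 with SBM and 1 with YMW against the other sources. Leaving out 1 array gave 0 to 1 with CAS, 0 to 2 with SBM, 0 to 1 with SDPP, 0 to 2 with YMW, 0 to 1 in the mean and 0 to 1 with SDPP against the other sources. The calls of 2 came from the fit without MC replicate 1 (Cox7a1 and Atp5md). Cox8b was called with SBM without MC replicate 3, and Cox7a1 with SBM and YMW without SBM replicate 3 or SDPP replicate 3. For centring, array weights and left-out arrays, the share of all genes past the threshold of the study is not given here. These counts therefore cannot be set against a background. The median log2 fold change of the subunits with CAS moved from -0.10 to -0.017 with a second quantile normalization. A median counted as moved when it shifted by at least the mean SD of the array medians in MC and that source. The medians with SBM, SDPP and YMW also shrank under that normalization, by less than this. The median of the subunits stayed below 0 with each of the 4 sources in every setting for which it was computed, and it was not computed with array weights. Using the arrays of the compared groups alone gave 2, 5, 0 and 9 genes (9.73%, 9.99%, 6.15% and 10.6% of all genes) at an unadjusted p under 0.05 in place of 3, 18, 1 and 16 (CAS, SBM, SDPP, YMW), and it gave no separate value for the mean of the 4 sources. The probe sets on a gene's own chromosome were an alternative chosen after seeing the data. Signal near background limits what can be seen of the tissue-restricted isoforms, and 3 MC arrays that differ limit all comparisons with the MC.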
